A study of Mus musculus with 15 samples.

Results

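The adrenergic receptor genes of the mouse prefrontal cortex (PFC) were examined in single-cell RNA-seq data. The 7 genes Adra1a, Adra1b, Adra1d, Adra2a, Adra2b, Adra2c and Adrb1 were taken by symbol from the 26145 listed genes, of which 25989 entered the levels and tests. They were followed across 8 cell classes, the finer deposited clusters (called L2 clusters), 2 ages and cocaine self-administration.

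Adrenergic receptors are the G protein-coupled receptors for noradrenaline and adrenaline. In cortex, noradrenaline is released by axons of the locus coeruleus, and its action depends on which receptor a cell carries. The alpha1 receptors couple mainly to Gq and phospholipase C, the alpha2 receptors to Gi and Go, which inhibit adenylyl cyclase, and the beta receptors to Gs, which stimulates it. In PFC, alpha2A receptors are best known for a role in working memory and alpha1 receptors for the effects of high noradrenaline under stress.

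Tissue was taken from male C57BL/6N mice, and the labels name no transgene or mutation. There were 15 libraries in 7 groups. At P60 (8 to 10 weeks in the labels), 12 libraries covered saline and cocaine self-administration at the end of maintenance (saline libraries 2 and 3, cocaine libraries 1 and 4), after 48 h of withdrawal (saline 5 and 7, cocaine 6 and 8) and after 15 days of withdrawal (saline 11 and 12, cocaine 9 and 10). At P21 (3 weeks in the labels) there were 3 libraries, for which the labels give no treatment and no self-administration phase. A library pooled the PFC of 2 mice, so the spread between libraries is a spread between pools. For P21, the methods give 4 mice, which cannot fill 3 separate pools of 2, so the 3 libraries may not be independent. No library held both ages, so age and the preparation of the libraries cannot be told apart, and P60 saline mice had also been through saline self-administration. According to the paper, catheters were implanted at P60, before self-administration and withdrawal. Age at harvest may therefore be later than P60 and may differ between the time points.

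The 35360 retained cells (24822 at P60 and 10538 at P21) gave 8375172 to 42892922 UMIs (unique molecular identifiers, each counting 1 mRNA molecule) per library and a median of 3426 to 11334.5 UMIs per cell. Of the classes, excitatory neurons numbered 14443 cells at P60 and 5934 at P21, and inhibitory neurons 1191 and 962. Astrocytes were few at P21 (321 cells, 42 to 227 per library), and oligodendrocyte precursor cells (OPC) numbered 41 there. Defining markers fit the class names. At P60, Gad1 stood at 1553 CPM (counts per 1000000 UMIs of the class) in inhibitory neurons and 1.54 CPM in excitatory neurons, Gja1 at 969 CPM in astrocytes, Pdgfra at 753 CPM in OPC and C1qa at 13252 CPM in microglia. One label of the tissue reads NAc, while titles and source read PFC. Slc17a7, a marker of excitatory neurons, was found at 8.23% of its excitatory level in endothelial cells, 12.7% in microglia and 18.8% in astrocytes, and these shares serve as the comparator for free RNA in the droplets. Between 0 and 27 cell barcodes were shared by any of the 105 pairs of libraries.

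Adra1a, which encodes the alpha1A receptor, was highest in inhibitory neurons at P60 and next highest in astrocytes. Over the 12 P60 libraries its level in inhibitory neurons was 48.4 ± 6.87 CPM (SD, n = 12), with a lowest library of 36.8, a median of 49.2 and a highest of 60.2 CPM. In astrocytes it was 26.3 ± 9.25 CPM (n = 11 libraries with at least 10 astrocytes) and ranged from 12.5 to 42.6 CPM. Inhibitory neurons were above astrocytes in 11 of 11 libraries (two-sided exact sign-flip permutation within libraries, p = 0.000977, the smallest that 11 libraries allow). OPC followed at 20.6 ± 12.0 CPM (n = 11), which was not distinguishable from astrocytes (p = 0.297, same exact test), and were above excitatory neurons at 5.01 ± 1.11 CPM (n = 12) in 10 of 11 libraries (exact p = 0.00195). Newly formed oligodendrocytes stood at 3.65, microglia at 1.25, endothelial cells at 0.868 and mature oligodendrocytes at 0.550 CPM, and no neighbours from excitatory neurons down differed beyond their spread (exact p between 0.125 and 0.766). These class tests are 49 in all over the 7 genes and their p-values were not adjusted. The class names come from the same cells.

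Adra1b, which encodes the alpha1B receptor, had its highest level in inhibitory neurons, followed by excitatory neurons. It was at 23.4 ± 9.70 CPM (n = 12) there, with a lowest library of 12.6, a median of 20.4 and a highest of 45.7 CPM. In excitatory neurons it was at 8.16 ± 1.93 CPM (n = 12; 4.95 to 11.9). Inhibitory neurons were above excitatory neurons in 12 of 12 libraries (exact p = 0.000488, the smallest possible), and excitatory neurons above astrocytes (4.31 ± 4.45 CPM, n = 11) in 9 of 11 (exact p = 0.0107). With libraries pooled, Adra1b in astrocytes was at 43.1% of its excitatory level, against 18.8% for Slc17a7. From astrocytes down to newly formed oligodendrocytes (0.331 CPM) the neighbours did not differ beyond their spread (exact p between 0.172 and 0.875).

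Adra1d, the alpha1D gene, was close to undetected. It gave 5 UMIs over all 35360 cells, each of them in P60 excitatory neurons, or 0.0264 CPM with the 12 libraries pooled. In P60 inhibitory neurons its 0 UMIs allow a level of up to 0.318 CPM and in astrocytes up to 0.561 CPM, at 3 UMIs over the libraries (a limit for counting error only). Molecules are counted at their 3′ ends in this method, and the annotated 3′UTR of Adra1d is 98 bases long, while the other members have 502 to 2298 bases. The RefSeq span of Adra1d is 705 bases longer than the annotated span (543 for Adrb1), and which end differs was not determined. The Gm14285 gene overlaps Adra1d on the other strand. Whether reads were missed for any of these reasons was not tested.

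Adra2a, the alpha2A gene, was low in every class at P60 and was shared by neurons and astrocytes. Its level was 5.20 ± 3.42 CPM (n = 11) in astrocytes, 4.94 ± 2.43 CPM (n = 12) in inhibitory neurons and 2.42 ± 1.05 CPM (n = 12) in excitatory neurons. Astrocytes and inhibitory neurons were not distinguishable (exact p = 0.906). Inhibitory neurons were above excitatory neurons in 11 of 12 libraries (exact p = 0.00732), and excitatory neurons above endothelial cells (1.63 ± 1.23 CPM, n = 12) in 10 of 12 (exact p = 0.0176). In the other classes Adra2a gave 1 UMI each at P60. The astrocyte level rests on 29 UMIs.

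Adra2b, the alpha2B gene, gave 9 UMIs at P60, 5 in endothelial cells, 3 in OPC and 1 in inhibitory neurons, and 2 at P21, both in excitatory neurons. No class differed from its neighbour (exact p of 0.250 or more). Adra2c, the alpha2C gene, was also low, at 2.37 ± 0.916 CPM (n = 12; 1.45 to 4.75) in excitatory neurons and 1.51 ± 1.60 CPM (n = 12; 0 to 4.33) in inhibitory neurons. These did not differ beyond their spread (9 of 12 libraries higher in excitatory neurons, exact p = 0.210). Outside neurons Adra2c was at 0.593 CPM or less, and 15 UMIs carry its inhibitory level.

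Adrb1, which encodes the beta1 receptor, was found in neurons, microglia and astrocytes at P60. Excitatory neurons held 10.3 ± 1.68 CPM (n = 12; 8.37 to 13.9), microglia 9.14 ± 6.56 CPM (n = 12; 0 to 24.7), astrocytes 6.91 ± 3.00 CPM (n = 11; 3.03 to 11.3) and inhibitory neurons 5.47 ± 4.06 CPM (n = 12; 0 to 10.99). No neighbours among these 4 differed beyond their spread (exact p between 0.285 and 0.595), while classes further apart in this order, such as excitatory and inhibitory neurons, were not tested against each other. Inhibitory neurons were above OPC (2.53 ± 3.89 CPM, n = 11) in 7 of 11 libraries (exact p = 0.0352). With libraries pooled, Adrb1 in microglia and astrocytes was at 82.1% and 73.9% of its excitatory level, against 12.7% and 18.8% for Slc17a7. In mature oligodendrocytes and endothelial cells it was at 13.6% and 15.7%, against 8.96% and 8.23% for Slc17a7.

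**Figure D1:**
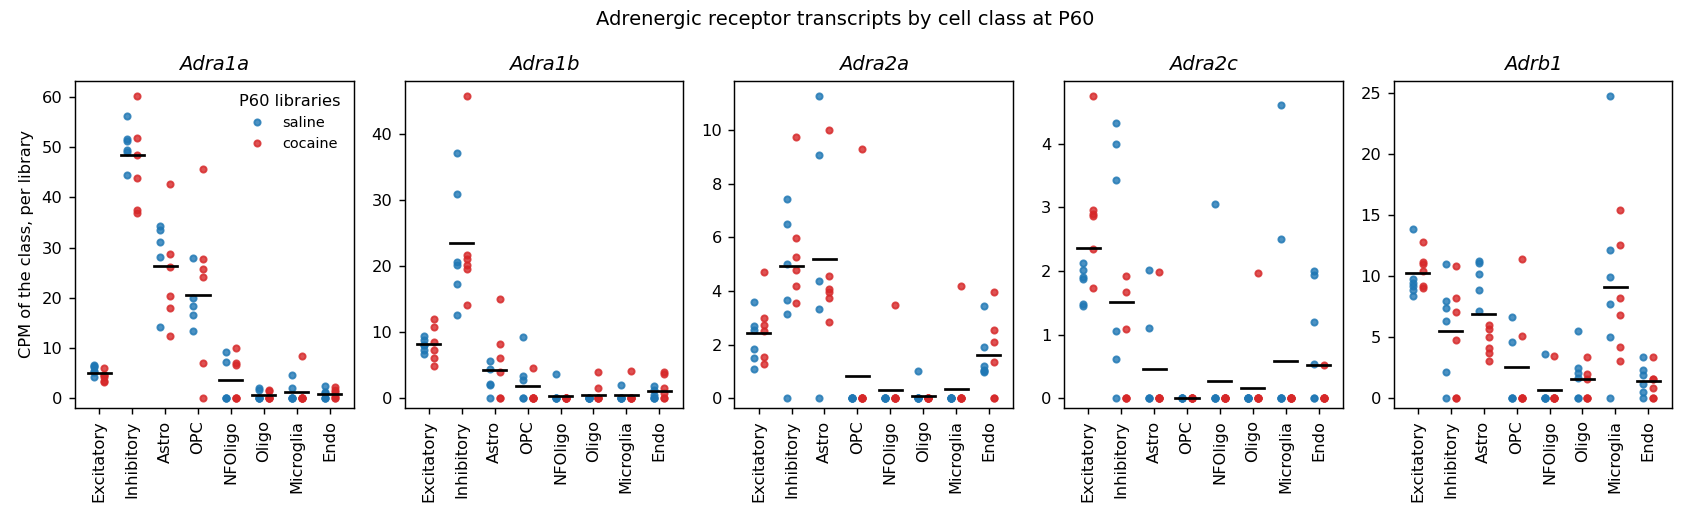
CPM of 5 adrenergic receptor genes (y axes, each panel with its own scale) in 8 cell classes (x axes) at P60. Points are libraries with at least 10 cells of the class, saline in blue and cocaine in red, and lines are means. Adra1a and Adra1b are highest in inhibitory neurons, with means of 48.4 and 23.4 CPM, while for Adrb1 the mean of excitatory neurons is 10.3 CPM and that of microglia 9.14 CPM.

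Counted per cell, 26.9% of 1191 inhibitory neurons at P60 held at least 1 Adra1a UMI (95% exact binomial interval 24.4% to 29.5%), against 6.20% of 14443 excitatory neurons and 0.421% of 3564 endothelial cells, whose median depths were 8038, 13620 and 4515.5 UMIs. After each cell was thinned to 2000 UMIs, the shares were 6.80%, 0.969% and 0.168%. Of 1495 astrocytes (median depth 3512 UMIs), 9.30% held an Adra1a UMI, and 5.42% after thinning, close to the share of inhibitory neurons. For 767 OPC (3405 UMIs) the shares were 6.26% and 3.26%. Adra1b was held by 16.8% of inhibitory and 9.76% of excitatory neurons (4.79% and 1.56% after thinning), and by 0.561% of endothelial cells (0.168%). At least 1 of the 7 genes was seen in 43.6% of inhibitory neurons, 28.9% of excitatory neurons and 14.7% of astrocytes. At least 2 of them were seen in 9.07%, 4.40% and 0.602% of these cells. In endothelial cells these shares were 2.50% and 0.168%. The shares depend on the depth of a cell and on free RNA. The binomial interval treats cells as independent, so it leaves out the spread between libraries.

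Within the inhibitory neurons of P60 mice, Adra1a and Adra1b were highest in different clusters, but they were not confined to separate ones. Of the 1191 cells, 320 held an Adra1a UMI, 200 an Adra1b UMI and 60 held both. Adra1a was highest in Inhib_7 at 81.3 CPM with libraries pooled (95% exact Poisson interval 72.0 to 91.4, which covers counting error only), and the 9 libraries with at least 10 such cells ranged from 74.0 to 94.1 CPM. Inhib_8 followed at 70.2 CPM. Both are rich in Npy (29563 and 15968 CPM), as is Inhib_1 (21260 CPM of Npy and 40338 CPM of Sst), where Adra1a was at 44.4 CPM on 16 UMIs. Inhib_7 held 32.9% of the inhibitory cells, 61.1% of their Adra1a UMIs and 24.8% of their Adra1b UMIs. Adra1b was highest in Inhib_9 (82.8 CPM, 64.2 to 105), Inhib_10 (76.6 CPM, 53.0 to 107) and Inhib_11 (61.0 CPM, 41.2 to 87.1), which are rich in Vip at 17734, 6094 and 3707 CPM. Inhib_4, with a Vip level of 19297 CPM, held Adra1b at 32.2 CPM and Adra1a at 44.6 CPM. The Inhib_7 level of Adra1b was 17.5 CPM and the Inhib_9 level of Adra1a was 35.8 CPM. Library values of Adra1b in Inhib_9 were scattered, from 0 to 159 CPM over 6 libraries. Adra2a was also highest in Inhib_10, at 18.02 CPM, on 8 UMIs.

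Among the 26 excitatory clusters, Adra1a, Adra1b, Adra2a and Adrb1 had different high and low points. Adra1a was highest in Exc_26 at 18.3 CPM (14.2 to 23.3), a cluster high in Fezf2 and Pou3f1, and in Exc_19 at 13.7 CPM (11.5 to 16.1), and lowest in Exc_15 at 0.819 CPM (0.266 to 1.91). Adra1b was highest in Exc_13 (19.8 CPM, 16.3 to 23.9) and Exc_15 (17.2 CPM, 14.1 to 20.8), a cluster high in the layer 5 marker Etv1, and lowest in Exc_4 (1.06 CPM, 0.484 to 2.01). Exc_15 was therefore the lowest excitatory cluster for 1 alpha1 gene and among the highest for the other. Adra2a was highest in Exc_18, Exc_19 and Exc_20 (8.21, 8.02 and 7.19 CPM), the 3 clusters with the most Syt6 (75.5 to 106 CPM) and Foxp2 (121 to 170 CPM), markers of layer 6. Exc_26, with 0.556 CPM of Syt6 and 8.06 CPM of Foxp2, was close to them in Adra2a at 6.95 CPM (4.498 to 10.3). In Exc_22 and Exc_24 Adra2a was at 0 of 429 and 470 cells, which allows up to 0.365 and 0.433 CPM. Adrb1 was lowest in 2 of these 3 layer 6 marker clusters, Exc_20 (1.03 CPM, 0.124 to 3.71) and Exc_19 (3.76 CPM, 2.66 to 5.16), and highest in Exc_26 (18.9 CPM), Exc_1 (17.4 CPM) and Exc_2 (16.6 CPM). Adra2c was highest in Exc_2, Exc_5 and Exc_1 (4.87, 4.76 and 4.39 CPM), clusters with Cux2 at 103 to 157 CPM and Calb1 at 262 to 317 CPM, markers of layers 2 and 3. The clusters were made by the authors from these cells, so differences between them are given without a test.

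**Figure D2:**
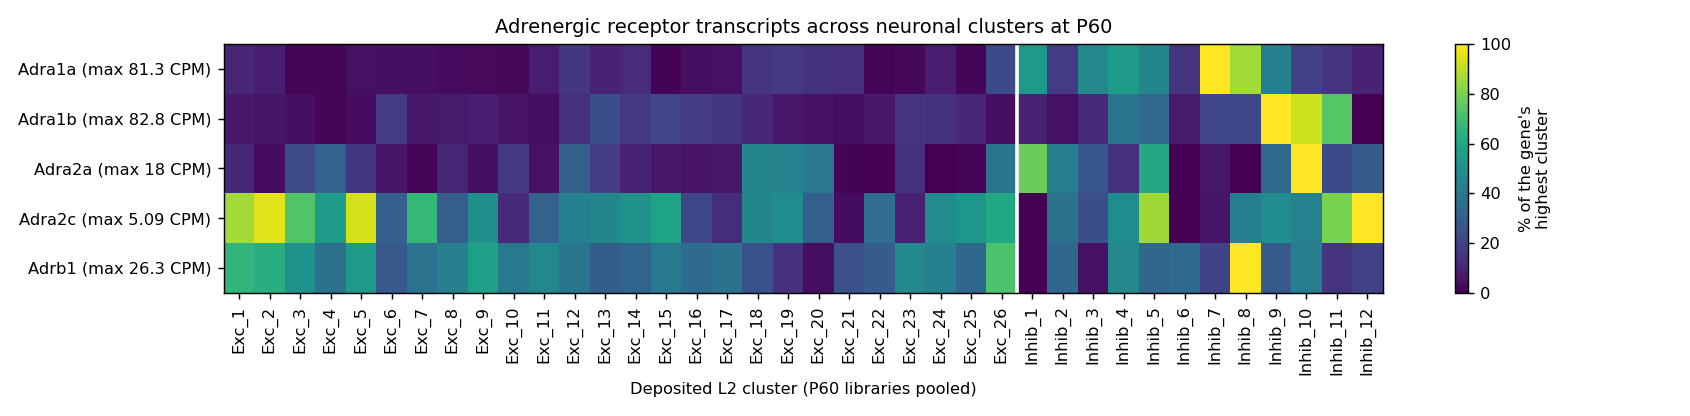
Level of each gene (rows) in the 26 excitatory and 12 inhibitory clusters (columns) at P60, libraries pooled, as a percent of the highest cluster of that gene (color; the highest CPM is given beside the name). Adra1a peaks in Inhib_7 at 81.3 CPM and Adra1b in Inhib_9 at 82.8 CPM, Adra2a has higher values over Exc_18 to Exc_20 and in Exc_26, and Adrb1 is near its lowest in Exc_20. Some small inhibitory clusters rest on few UMIs, as for Adra2c.

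Outside neurons, Astro_6 and Astro_1 had the highest Adra1a of the 8 astrocyte clusters (44.0 CPM, 25.6 to 70.5, and 41.8 CPM, 26.2 to 63.3). Endo_2, a cluster of the endothelial class that was high in Acta2 (935 CPM), Myh11 (275 CPM) and Tagln (360 CPM), markers of smooth muscle cells, held the highest Adra2a of that class at 6.98 CPM (3.61 to 12.2) on 12 UMIs.

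The genes whose level followed each member most closely over the 82 clusters of at least 50 P60 cells were found among 15991 genes. For Adra1a they were Ppargc1a, a coactivator of mitochondrial genes, Cntnap2 and the potassium channel gene Kcnk1 (Pearson r of log2(CPM + 1) of 0.78, 0.77 and 0.76). For Adra1b they were Grip1, the cannabinoid receptor gene Cnr1 and Slc2a13 (0.91, 0.90 and 0.88). Adra2a was followed most closely by Sdk2, Cplx2 and the receptor kinase gene Adrbk2 (0.72, 0.71 and 0.69), Adra2c by Mas1, Ankrd35 and Kcns1 (0.87, 0.86 and 0.85) and Adrb1 by Camk2n1, Doc2a and Spint2 (0.86, 0.85 and 0.85). For Adra2b they were Lhx1, Styk1 and Chrm5 (0.86, 0.84 and 0.83), on very few UMIs, and Adra1d was too low to rank. The clusters of a class share libraries and depth, so these values are descriptive.

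The comparison of P21 with P60 saline mice asks how receptor transcripts differ between adolescence and adulthood. By class, 8 of the 49 tests of members and classes passed the filter on low counts, and 4 were called (edgeR quasi-likelihood test, Benjamini-Hochberg adjusted p under 0.05 over all genes tested and a change above 1.5-fold). Adra2a, Adra1b and Adra2c were lower at P60 in excitatory neurons, and Adra1a was higher in inhibitory neurons. Of all genes tested in the classes, 11.9% were called (4.94% higher and 6.99% lower), so a call is common in this comparison. In excitatory neurons 19.3% of genes were called (11.1% lower), and in inhibitory neurons 5.73% were called higher.

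Adra2a had the largest difference of the members called. In excitatory neurons it was at 5.98, 7.32 and 8.92 CPM in the 3 P21 libraries and at 1.11, 1.51, 1.82, 2.54, 2.68 and 3.58 CPM in the 6 saline libraries. Every P21 library was above every saline library, and the 6 cocaine libraries (1.29 to 4.71 CPM) were below P21 as well. Of genes at 1 to 5 CPM in this class, as Adra2a and Adra2c are, 26.7% had no overlap between P21 and saline. The level fell by 1.73 on the log2 scale (SE 0.25, adjusted p = 0.000192 in edgeR), and by 1.57 to 1.87 when any 1 library was left out. With each excitatory cluster given the same share of cells at both ages (21 clusters, each with at least 5 cells in every library, that hold 84.7% of the cells), the means were 5.83 ± 1.02 CPM (n = 3) and 2.25 ± 0.943 CPM (n = 6) (exact permutation p = 0.0238, the smallest that 3 against 6 allows). Over the 14 clusters with at least 10 cells in every library (65.7% of the cells) the p was the same. With libraries pooled, 22 of 26 clusters were lower at P60 and 2 were higher.

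Adra2c in excitatory neurons was at 3.46, 3.04 and 2.83 CPM at P21 and at 1.45, 1.48, 1.87, 1.90, 2.01 and 2.12 CPM in the saline libraries. These did not overlap either. It fell by 0.71 on the log2 scale (SE 0.18, adjusted p = 0.00756 in edgeR). With the cluster makeup fixed the means were 3.49 ± 0.747 and 1.70 ± 0.456 CPM (exact p = 0.0238), but over the 14 clusters with at least 10 cells in every library they were 2.90 ± 0.982 and 1.82 ± 0.520 CPM (exact p = 0.0952). When all 12 P60 libraries were used, the difference was -0.37 and was not called (adjusted p = 0.221), with the cocaine libraries at 1.74 to 4.75 CPM.

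Over all excitatory neurons, Adra2a and Adra2c are the members whose lower level at P60 was called with each library left out in turn, and the sequence before their starts is shown for this reason. Both genes have 1 exon and lie on the plus strand (Adra2a, ENSMUSG00000033717, chr19:54119672-54123472, and Adra2c, ENSMUSG00000045318, chr5:35621215-35624410, NCBIM37). Windows of 250 bases before the RefSeq starts of GRCm38.p6 were found once each in NCBIM37. For Adra2a the last 77 bases of the window lie inside the annotated gene and are not shown, so the stretch is chr19:54119499-54119671, and for Adra2c it is the whole window, chr5:35620965-35621214. Capitals mark motifs that were searched on both strands, and the first of these is the GC box GGGCGG. An E-box with the letters CACGTG is marked in the same way. Searched as well, and absent from the bases shown, were the TATA box TATAAA and, as the last of the motifs, the cAMP response element TGACGTCA. These motifs were chosen after the windows had been read.
Adra2a: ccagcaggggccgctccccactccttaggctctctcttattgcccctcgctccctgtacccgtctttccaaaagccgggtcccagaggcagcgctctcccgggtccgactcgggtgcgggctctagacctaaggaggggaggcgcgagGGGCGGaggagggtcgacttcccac
Adra2c: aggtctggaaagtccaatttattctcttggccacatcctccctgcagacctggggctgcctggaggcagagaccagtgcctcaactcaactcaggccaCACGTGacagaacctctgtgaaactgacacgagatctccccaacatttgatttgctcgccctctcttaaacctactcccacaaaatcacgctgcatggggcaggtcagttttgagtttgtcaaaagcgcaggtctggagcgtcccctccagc
The whole Adra2a window is 67.6% G and C and holds 1 GC box, shown above, and 1 E-box and 1 TATA box that reach into or lie in the 77 bases not shown. The Adra2c window is 53.6% G and C, near the median of 52.4% over all 32536 windows, and holds 1 E-box and none of the others. Of all windows, 33.0% held a GC box, 12.3% a TATA box, 1.56% a cAMP response element and 6.04% this E-box, and a match of letters does not show that a factor binds. Windows for Adra1b, Adra2b and Adrb1 were also matched, and Adra1a and Adra1d had none.

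Adra1b in excitatory neurons was called lower at P60, but 1 library decided the size. It was at 24.2, 9.81 and 9.93 CPM in P21 libraries 1, 2 and 3 and at 6.73 to 9.40 CPM in the saline libraries. P21 library 1 stood far above the rest, and the other 2 lay just above the saline range. The difference was -0.85 on the log2 scale (SE 0.26, adjusted p = 0.0253 in edgeR), and -0.26 without P21 library 1 (adjusted p = 0.177). The call was also lost without saline library 11 (adjusted p = 0.0518) or saline library 5 (0.0506). With the makeup fixed the means were 13.98 ± 9.07 and 7.52 ± 0.938 CPM (exact p = 0.0714). P21 library 1 was also the highest for Adra1b in inhibitory neurons, at 40.7 CPM against 22.9 and 11.1 CPM in the other 2, and in Inhib_9, at 312 CPM against 126 and 94.3 CPM. In inhibitory neurons the difference with age was -0.27 (SE 0.37, adjusted p = 0.668 in edgeR). With libraries pooled, Adra1b there was at 26.3 CPM at P21 and 21.2 CPM in saline mice. With each of the 12 inhibitory clusters given the same share at both ages, it was at 41.6 and 18.2 CPM. Of these clusters, 9 were lower at P60 and 3 were higher. These pooled values have no test, and those of P21 include library 1.

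For the remaining members in excitatory neurons, Adra1a was at 8.96, 8.65 and 7.83 CPM at P21 and 4.31 to 6.52 CPM in saline libraries, a difference of -0.50 (SE 0.14, adjusted p = 0.0118 in edgeR) that passed the test and was under the 1.5-fold cutoff. Adrb1 was at 11.9, 12.0 and 14.2 CPM at P21 and 8.37 to 13.9 CPM in saline libraries, with 1 saline library inside the P21 range, and did not pass the test (-0.32, SE 0.14, adjusted p = 0.0772). With the makeup fixed, Adra1a was at 8.26 ± 0.576 CPM at P21 (7.86 to 8.92) and 6.09 ± 1.39 CPM in saline libraries (4.24 to 8.14), and the groups overlapped (exact p = 0.0714). Adrb1 was then at 13.07 ± 1.73 and 9.75 ± 1.09 CPM (exact p = 0.0238). Of the 3 members at 5 CPM or more in this class (Adra1a, Adra1b and Adrb1), the P21 and saline libraries did not overlap for 2, and 38.1% of all such genes did not overlap.

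**Figure D3:**
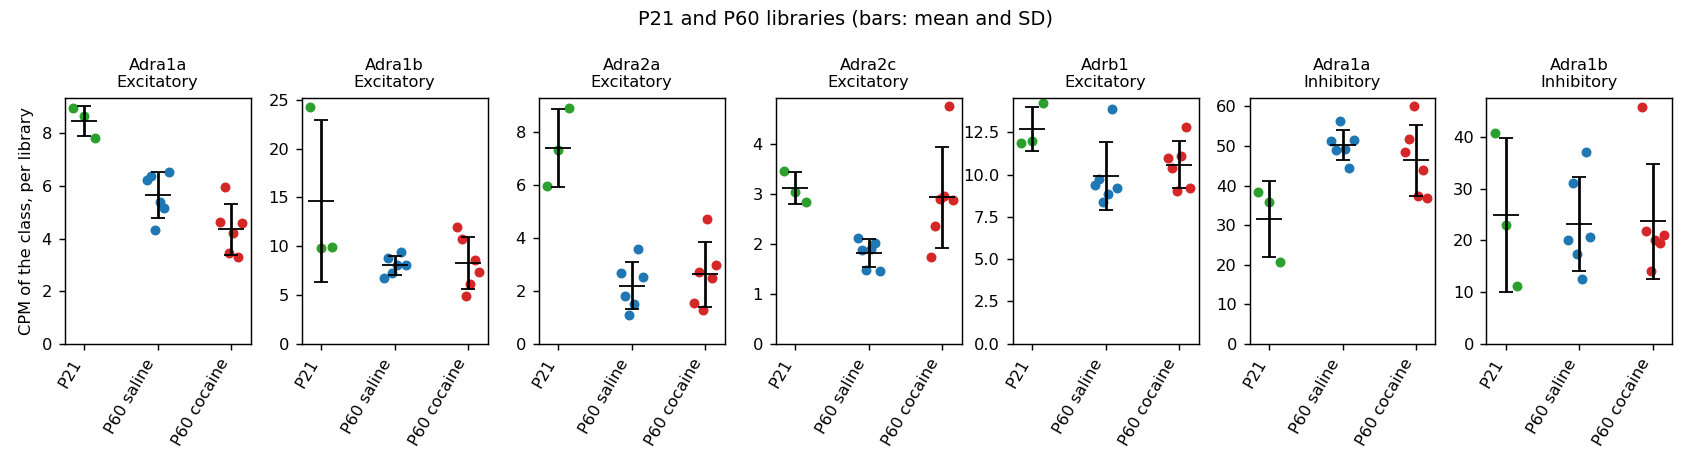
CPM by library (points) at P21, P60 saline and P60 cocaine for 5 genes in excitatory and 2 in inhibitory neurons; bars are the mean and SD, and each panel has its own scale from 0. Adra2a in excitatory neurons separates P21 (5.98 to 8.92 CPM) from all P60 libraries, and for Adra1b the P21 mean is set by 1 library at 24.2 CPM.

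Adra1a in inhibitory neurons was the member called higher at P60. It was at 38.3, 35.7 and 20.6 CPM at P21 and at 44.5, 49.0, 49.3, 51.2, 51.5 and 56.2 CPM in the saline libraries, without overlap (16.5% of genes at 5 CPM or more did not overlap in this class). The difference was 0.66 on the log2 scale (SE 0.19, adjusted p = 0.0230 in edgeR), and 0.45 without P21 library 3 (adjusted p = 0.150). With P21 libraries 2 and 3 summed as 1 library it was 0.62 (adjusted p = 0.0503). The cluster makeup of these neurons, by the deposited names, differed between the ages. The paper describes assigning P21 cells to the P60 clusters by correlation, so shares and levels of clusters at P21 depend on that assignment. Inhib_7, the cluster with the most Adra1a, made up 7.90% of inhibitory cells at P21 and 35.7% in saline mice, and Inhib_2, where Adra1a was low, made up 35.4% and 7.82%. Within Inhib_7, Adra1a was at 107, 111 and 61.1 CPM at P21 and at 74.4 to 87.5 CPM in 4 saline libraries, a difference of -0.37 (SE 0.27, adjusted p = 0.517 in edgeR). With each of the 12 clusters given the same share at both ages and libraries pooled, Adra1a was at 42.8 CPM at P21 and 35.0 CPM in saline mice, the opposite order to the 32.0 and 50.6 CPM as measured, and 8 of 12 clusters were lower at P60. These values have no test, since only 1 of the 12 inhibitory clusters held at least 5 cells in every library.

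**Figure D4:**
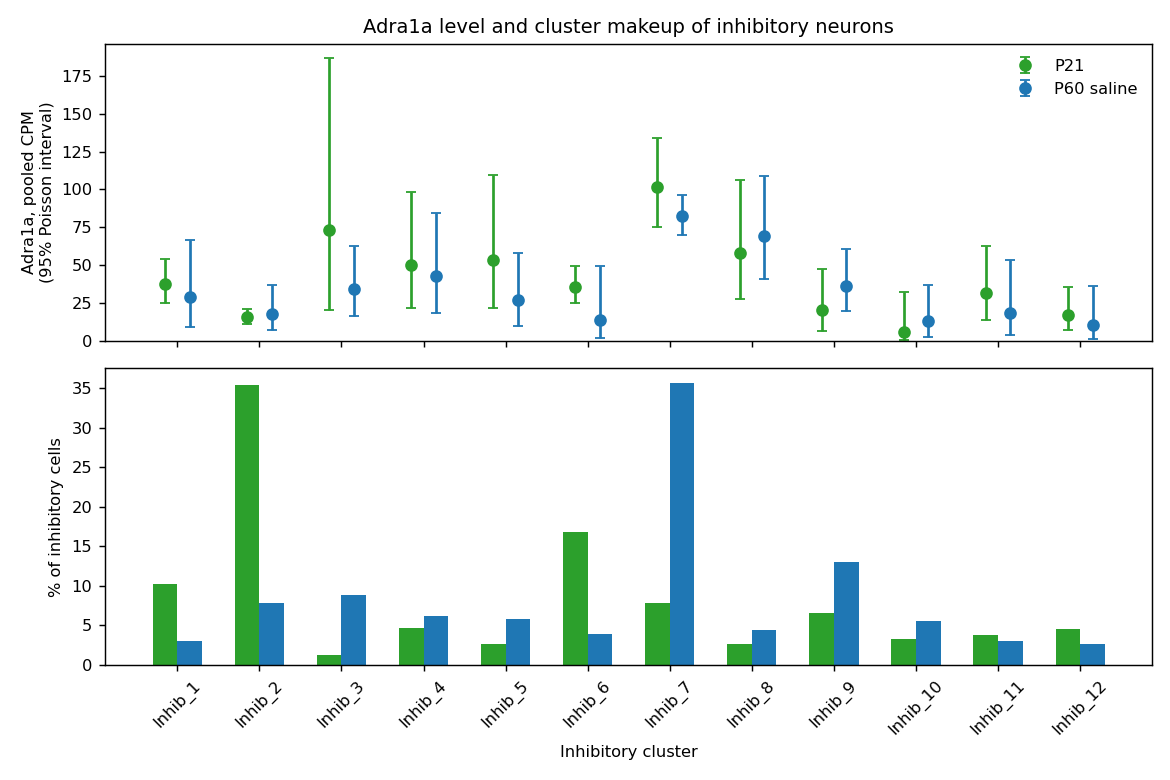
Adra1a level (top, CPM with libraries pooled and 95% exact Poisson intervals) and the share of inhibitory cells (bottom, percent) in the 12 inhibitory clusters at P21 (green) and in P60 saline mice (blue). Adra1a is highest in Inhib_7 at both ages (101 and 82.2 CPM), while the share of Inhib_7 is 7.90% at P21 and 35.7% at P60.

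In astrocytes, Adra1a was at 14.03, 9.69 and 0 CPM at P21 and 14.3 to 34.3 CPM in 5 saline libraries, a difference of 1.37 (SE 0.50) that did not pass the test (adjusted p = 0.230 in edgeR, where 1.11% of genes in astrocytes were called). The libraries did not overlap, as for 9.09% of genes at 5 CPM or more. It rests on 11 UMIs at P21. The age differences of Adra1a (4 tests) and Adra1b (1 test) were set against those of other cells in exact permutation tests. Levels were taken as measured, not at a fixed cluster makeup, so the contrasts of classes include differences in cluster shares between the ages. The age difference of Adra1a was 1.22 higher in inhibitory than in excitatory neurons on the scale of log2(CPM + 1) (exact permutation p = 0.0238, the smallest possible, and 0.0595 after Benjamini-Hochberg adjustment). The age difference of Adra1a in astrocytes was 2.92 higher than in excitatory neurons (exact p = 0.0357, the smallest possible, adjusted 0.0595), with 1 P21 astrocyte library at 0 CPM. The other class contrasts, inhibitory neurons against astrocytes for Adra1a and against excitatory neurons for Adra1b, had p = 0.107 and 0.119 (exact, adjusted 0.119 for both). None passed the adjustment. With so few libraries, a test at its smallest possible p could pass only if others of the 5 tests came near theirs. The adjusted values therefore do not decide these contrasts.

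By cluster, 13 of 203 tests of members and clusters passed the filter on low counts and 5 were called, 1 higher and 4 lower at P60 (10.6% of all genes tested over the clusters were called, 4.25% higher and 6.37% lower). Exc_19, 1 of the 3 clusters with layer 6 markers, held 3 of these (15.1% of its genes were called). Adra1a in Exc_19 was at 5.99, 6.51 and 6.61 CPM at P21 and at 12.0, 12.9, 13.3, 13.97, 14.7 and 18.99 CPM in the saline libraries. It rose by 1.22 (SE 0.33, adjusted p = 0.0101 in edgeR), and by 1.14 to 1.25 with any 1 library left out, while the excitatory class as a whole had the lower level at P60 described above. The 3 P21 libraries gave 24 Adra1a UMIs in Exc_19. Adra1a may have passed the filter on low counts in this cluster only through the saline libraries, where it was higher. Relative to the rest of the excitatory neurons the difference was 1.69 (exact permutation p = 0.0238, adjusted over the same 5 tests 0.0595), a contrast picked after the values were seen. Of the cocaine libraries, 5 were at 11.3 to 18.4 CPM and library 1, with 13 cells of Exc_19, was at 0.

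In the same cluster, Adra2a was at 17.3, 17.7 and 19.01 CPM at P21 and at 0 to 12.9 CPM in saline libraries, and fell by 1.23 (SE 0.41, adjusted p = 0.0351 in edgeR). Adra1b fell by 1.27 (SE 0.44, adjusted p = 0.0452), with P21 library 1 at 26.6 CPM, the other P21 libraries at 10.2 and 11.6 CPM and saline libraries at 0 to 19.4 CPM. In Exc_25, a cluster high in Etv1 in which 20.6% of genes were called, Adra1b was at 29.8, 26.4 and 12.8 CPM at P21 and 3.39 to 16.9 CPM in saline libraries and fell by 1.45 (SE 0.31, adjusted p = 0.00113), and by 1.14 without P21 library 1 (adjusted p = 0.0156). Adrb1 fell by 0.95 there (SE 0.31, adjusted p = 0.0201), with P21 libraries at 14.1 to 21.9 CPM and saline libraries at 5.33 to 22.1 CPM. The Adra2a and Adra1b calls in Exc_19 and the Adrb1 call in Exc_25 were each lost in at least 2 of the fits that left out 1 library. In Exc_19, Adra2a and Adra1b did not pass the filter on low counts in the fits of P60 libraries alone. They may have passed it here only through the P21 libraries, where they were higher. Adra1b could be tested in 6 of the 9 fits that left out 1 library.

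Comparisons of cocaine with saline asked whether self-administration and withdrawal altered the receptors. No member that could be tested was called in any class at any time point. By class, the tests covered 5 members in excitatory neurons, Adra1a and Adra1b in inhibitory neurons, and Adra1a in astrocytes at 48 h and 15 days. In the other classes no member passed the filter on low counts, so a change there was not tested. Within time points, 23 of 147 tests of members passed the filter, 6 had an unadjusted p under 0.05 and 0 were called (edgeR, 0.131% of all genes tested were called). Over all time points, 7 of 35 tests could be made, 2 had an unadjusted p under 0.05 and 0 were called (0.00689% of all genes). For a difference of the cocaine effect between time points, 1 of 7 had an unadjusted p under 0.05 and 0 were called (0.0138% of all genes). By cluster within time points, 6 of 49 tests had an unadjusted p under 0.05 and 0 were called (0.478% of all genes). DESeq2 also gave 0 in each of these 4 comparisons.

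The members nearest to a call were Adra1b and Adra2c in excitatory neurons. At 15 days of withdrawal Adra1b was at 10.7 and 11.9 CPM in cocaine and 6.73 and 8.75 CPM in saline libraries, a difference of 0.61 (SE 0.16, adjusted p = 0.112 in edgeR, where 0.706% of genes in this class were called). At 48 h the cocaine libraries were lower, at 4.95 and 6.12 against 7.26 and 8.08 CPM (-0.48, SE 0.20, adjusted p = 0.980), and at maintenance the ranges overlapped (-0.15, SE 0.21, adjusted p = 0.920). The test that these 3 differences are equal had an unadjusted p of 0.00157 and an adjusted p of 0.569 (edgeR quasi-likelihood F test). Without the filter on low counts, Adra1b was called both at 15 days (0.62, adjusted p = 0.0157 in edgeR) and for a difference between time points (adjusted p = 0.0176), where 1.92% and 1.57% of all genes were called. Without saline library 12, which leaves saline library 11, the lowest of the 4, as the 1 saline library at 15 days and takes the spread from the other groups, the difference was 0.80 and was called (adjusted p = 0.0292, with 2.96% of all genes called), as it was in Exc_14 (1.42, adjusted p = 0.0240, with 3.78% called).

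Adra2c was at 2.87 and 4.75 CPM in the cocaine libraries at maintenance against 1.45 and 2.01 CPM in saline (1.15, SE 0.37, adjusted p = 0.735 in edgeR), and at 2.90 and 2.95 against 1.48 and 1.90 CPM at 48 h (0.73, SE 0.32, adjusted p = 0.980). At 15 days the ranges overlapped (0.06, SE 0.25). Over all time points the difference was 0.65 (SE 0.18, adjusted p = 0.342), and 0.66 with a call when the filter on low counts was left out (adjusted p = 0.0430, with 0.303% of all genes called). Adra2a at 48 h differed by 1.22 (SE 0.53, adjusted p = 0.980), with cocaine libraries at 1.29 and 4.71 CPM, which span most of the range of the class. Adra1a was lower in cocaine over all time points by -0.40 (SE 0.14, adjusted p = 0.474), at 4.36 ± 0.969 CPM (n = 6) against 5.66 ± 0.863 CPM (n = 6), with overlap. Adrb1 in excitatory neurons was at 10.6 ± 1.39 CPM in cocaine and 9.91 ± 2.00 CPM in saline libraries (0.12, SE 0.11, adjusted p = 0.808). In inhibitory neurons Adra1a was at 46.4 ± 8.95 CPM in cocaine and 50.3 ± 3.83 CPM in saline libraries (-0.18, SE 0.19), and Adra1b at 23.7 ± 11.1 and 23.1 ± 9.14 CPM (0.20, SE 0.30), and neither passed the test.

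**Figure D5:**
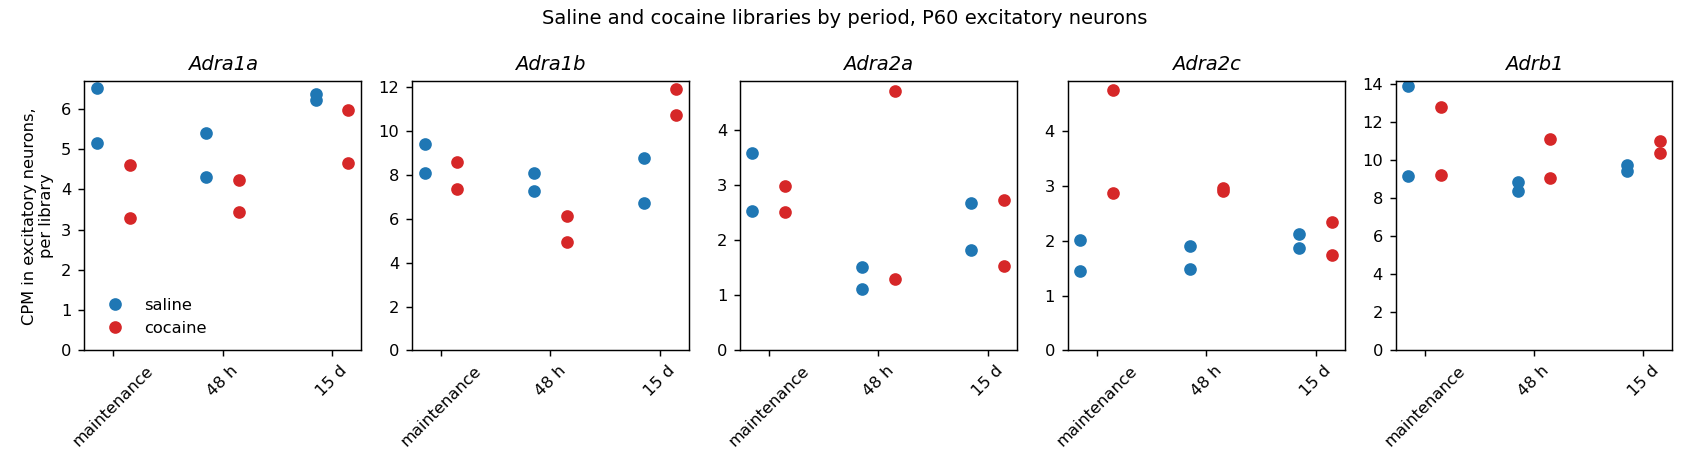
CPM in excitatory neurons (y axes from 0, each panel with its own scale) of the 2 saline (blue) and 2 cocaine (red) libraries at maintenance, 48 h and 15 days of withdrawal. For Adra1b the cocaine libraries lie above saline at 15 days (10.7 and 11.9 CPM) and below at 48 h (4.95 and 6.12 CPM); none of the differences was called.

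Other genes of noradrenaline signaling were read from a list of 45, all of which were in the files: G proteins, phospholipases, protein kinase A subunits, receptor kinases and arrestins, RGS proteins, channels, and genes of clearance, synthesis and storage. With age, 6 of the 39 tested in excitatory neurons were called (19.3% of all genes), 3 higher and 3 lower at P60 (8.18% and 11.1% of all genes). Those higher were the RGS genes Rgs14 (1.14, SE 0.16) and Rgs2 (0.61, SE 0.10), whose products limit G protein signaling, and Maob (0.95, SE 0.23), a monoamine oxidase (adjusted p from 0.000170 to 0.00722 in edgeR). Those lower were Slc29a4, which encodes a monoamine transporter (-2.19, SE 0.25), the protein kinase A subunit gene Prkar2b (-0.75, SE 0.11) and the Gi family gene Gnaz (-0.64, SE 0.10). In inhibitory neurons 3 of 30 were called, all lower at P60 (8.29% of all genes): Gnaz (-0.92, SE 0.16), the catalytic subunit gene Prkacb (-0.99, SE 0.17) and Rgs4 (-0.90, SE 0.23). The median over the list was -0.13 in excitatory and -0.15 in inhibitory neurons, beside -0.005 and 0.002 over all genes tested. These differences are of whole classes, and no gene of the list was read at a fixed cluster makeup. Inhib_7 made up 7.90% of inhibitory cells at P21 and 35.7% in saline mice, and Exc_20 made up 8.34% and 1.40% of excitatory cells. Whether such differences in makeup entered the values of the list was not tested. In endothelial cells Maob was higher (0.94) and Slc29a4 lower (-1.54) at P60, 2 of 30 tested (12.7% of all genes). In mature oligodendrocytes Gnas, the Gs gene, was lower (-0.76), 1 of 14 tested (17.8% of all genes), and astrocytes, microglia and newly formed oligodendrocytes had 0 of 21, 12 and 11 (1.11%, 0.726% and 1.94% of all genes). Between cocaine and saline, 0 of the list were called in every class and time point tested (10 to 38 genes tested in a fit, in which 0% to 0.84% of all genes were called).

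Markers of noradrenergic neurons, whose cell bodies lie outside cortex, were low in most clusters. With P60 libraries pooled, no cluster held more than 1.24 CPM of Dbh, the enzyme that makes noradrenaline, 3.75 CPM of the noradrenaline transporter gene Slc6a2 or 2.47 CPM of Slc18a2, and Th reached 126 CPM in Inhib_3. Ddc, which encodes the decarboxylase shared by the synthesis of several monoamines, was at 111 ± 20.99 CPM (n = 6) in endothelial cells, 105 ± 55.4 CPM (n = 5) in newly formed and 92.0 ± 16.6 CPM (n = 6) in mature oligodendrocytes of saline mice, and at 1.37 ± 1.53 CPM (n = 6) in inhibitory neurons.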

How the data were processed

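The authors captured PFC cells on the 10X Chromium platform, aligned reads to mm9 (NCBIM37, Ensembl genes) with Cell Ranger and deposited raw UMI counts per gene and cell, with no normalization, and a metadata table with the class and L2 cluster of every kept cell from Seurat 2.1.0. Cells with over 10% mitochondrial RNA and likely doublets had been removed by the authors. Cells with few detected genes had been removed as well, with a higher cutoff for neurons than for other cells at P60. For P21 the methods of the paper name only the lower cutoff, while its results state the same criteria as for P60. According to the paper, P21 cells were assigned to the clusters of P60 cells by correlation after both ages had been aligned. Counts of a joined deposited table were not used. For each library, counts were summed over the cells of a class (from the name of the L2 cluster; the deposited class column differs for 492 cells) or cluster, and a library with under 10 such cells was left out (under 5 for the fixed cluster makeup by library). The 13 mitochondrial and 143 ribosomal protein genes (8.83% to 11.1% of UMIs) were dropped, which left 25989 genes for CPM and tests. In R 4.3.3, edgeR 4.0.16 was run with its filter on low counts (filterByExpr), TMM scaling and robust quasi-likelihood tests on all genes, with calls at an adjusted p (Benjamini-Hochberg) under 0.05 and above 1.5-fold. P21 was compared with 6 saline P60 libraries. For cocaine, the 12 P60 libraries entered 1 fit with a mean for each of their 6 groups. P-values measure the spread between libraries. The edgeR steps were tested on simulated data. Exact permutation tests, CPM and intervals were computed in Python 3.11.15 with numpy 2.4.6, pandas 2.3.3 and scipy 1.17.1. Genes were placed with GENCODE vM1 (NCBIM37). The named genes are every member, in every class and in the clusters where it was highest, the 3 genes most alike (among genes of at least 5 CPM in a cluster), and genes of the pathway list that were called. The members, the lists and the comparisons were chosen with earlier results of these data known. Alternatives were DESeq2 1.42.0, DESeq2 size factors in edgeR, no filter, no fold cutoff, a minimum of 30 cells, the deposited class column, all listed genes in CPM, all 12 P60 libraries, saline libraries only (for levels), P21 libraries 2 and 3 summed, and leaving out each library. A fixed cluster makeup and the ranges of groups that do not overlap were added after the data were seen.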

Additional observations from a re-analysis of the deposited data

Results flagged for a closer look

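In 22 groups of 5 or 6 libraries of a member at 5 CPM or more, Dixon's test at the 95% level marked 3 libraries as standing apart from the others of their group, where chance marks about 1 group in 20. Adra1b in inhibitory neurons was at 45.7 CPM in cocaine library 9 (15 days of withdrawal), with the next of the 6 cocaine libraries at 21.7 CPM. Adra2a in astrocytes was at 9.99 CPM in cocaine library 6 (48 h), with the next at 4.54 CPM. Adrb1 in excitatory neurons was at 13.9 CPM in saline library 2 (maintenance), with the next of the 6 saline libraries at 9.76 CPM. Groups of 3, such as P21, are not covered by this test.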

How the results depend on the processing

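Levels by class at P60 moved by less than 1 SD under each alternative tried, and the highest class stayed the same except with saline libraries only, where Adra2c was highest in inhibitory neurons (2.24 against 1.81 CPM in excitatory neurons) and Adrb1 in microglia (9.93 against 9.91 CPM), and except for Adra2a, which was highest in inhibitory neurons instead of astrocytes without saline library 3, 7 or 11 or cocaine library 6. The count of 4 members called with age by class ranged from 3 to 4 when 1 library was left out. By cluster, the 5 calls with age became 2 with DESeq2, 8 with P21 libraries 2 and 3 summed, 22 without the filter on low counts, and 3 to 8 when 1 library was left out. For cocaine against saline, 0 calls became 1 without the filter within time points, over all time points and for the difference between time points. Leaving out 1 library gave 0 to 1 within time points, both by class and by cluster. With a fixed cluster makeup and libraries pooled, the age difference of Adra1a in inhibitory neurons was -0.29 in place of 0.66. The Adra2c call in excitatory neurons was lost with a fixed makeup of clusters with at least 10 cells in every library (-0.67, exact p = 0.0952). Adra1a in excitatory neurons was called with all 12 P60 libraries (-0.67, adjusted p = 0.00266 in edgeR). No paired analysis was possible because the labels give no replicate numbers that pair libraries across groups; numbers were given in order only. Depth limits Adra1d and Adra2b, Adra2c outside excitatory neurons, and most members in glia, to descriptions, and the P21 values rest on 3 libraries of 4 mice.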

Other observations

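Adrb1 in astrocytes is not part of the tests, since its counts did not pass the filter. Its level was 7.14, 8.85, 10.2, 11.1 and 11.3 CPM in 5 saline libraries (29 UMIs) and 3.03, 3.74, 4.08, 5.00, 5.68 and 5.97 CPM in 6 cocaine libraries (11 UMIs). The groups did not overlap, which held for 0.201% of the 9944 genes at 5 CPM or more in astrocytes. Every one of these values rests on few molecules, and the comparison was chosen after the values were seen. Without the filter, edgeR gave log2 differences of -0.69 (SE 1.19) at 48 h and -1.54 (SE 0.91) at 15 days (adjusted p of 1.0 for both). At P21 the 3 libraries held 1 Adrb1 UMI in 321 astrocytes.

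Adra2a in astrocytes was at 28.1, 0 and 8.73 CPM in the 3 P21 libraries and 0 to 11.3 CPM in 5 saline libraries. After thinning to 2000 UMIs, 4.25% of P21 astrocytes and 0.870% of P60 astrocytes held an Adra2a UMI, against 0.251% and 0.140% of endothelial cells. These shares pool cells over libraries and leave out the spread between them, which at P21 ran from 0 to 28.1 CPM on 21 UMIs. The P60 shares include cocaine as well as saline libraries. Without the filter the age difference was -1.70 (SE 0.68, adjusted p = 0.238 in edgeR).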
